A study of Mus musculus with 15 samples.

Results

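Gap43, Marcks, Marcksl1, Basp1, Stmn1, Stmn2, Dcx, Tubb3, Tubb2b and Dpysl3 are genes of axon growth and the growth cone, and their RNA was followed here across the cell classes and clusters of the mouse prefrontal cortex (PFC) at P21 and at P60. The 10 genes were picked by symbol, out of 26145 genes listed in the files, and each symbol matched 1 row. After the removal of mitochondrial and ribosomal protein genes, the 10 were part of 25988 genes used for normalization.

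Cells were dissociated from the PFC of male C57BL/6N mice and sequenced as droplet libraries with unique molecular identifiers (UMIs), each library from 2 pooled mice. The P21 group (3 weeks in the labels) has 3 libraries of mice without self-administration, and the methods give 4 mice for it, so how the mice were divided is not known and P21 libraries may share mice. The adult group, called P60 (8 to 10 weeks in the labels), has 6 libraries of mice that self-administered saline and 6 of mice that self-administered cocaine, 2 of each at maintenance, 2 at 48 h of withdrawal and 2 at 15 d of withdrawal. The P60 mice of both kinds had thus been through surgery and self-administration sessions that the P21 mice had not. In the paper the catheter was implanted at P60, so tissue was taken later, after the sessions and up to 15 d of withdrawal. P60 is therefore used as the name of the group and not as the age at harvest. The tissue field of the labels names the nucleus accumbens, while titles and source fields name the PFC. The cells held 35360 retained barcodes of 43795, with 10538 at P21, 11886 in P60 saline and 12936 in P60 cocaine libraries, and 8375172 to 42892922 UMIs per library. No library held mice of both ages, so age and the preparation of libraries cannot be told apart in anything that follows.

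A growing axon ends in a growth cone, a flattened structure in which actin filaments at the edge and microtubules in the core are assembled and taken apart as it steers. GAP-43, CAP-23 (from Basp1), MARCKS and the MARCKS-like protein (from Marcksl1) are acidic proteins attached to the inner face of the membrane, where they bind phosphoinositides and are controlled by protein kinase C or calmodulin. Stathmins (Stmn1, Stmn2) bind free tubulin and favour microtubule disassembly, doublecortin (Dcx) stabilizes microtubules, Tubb3 and Tubb2b are beta tubulins, and Dpysl3 encodes CRMP4, a collapsin response mediator that carries guidance signals to the cytoskeleton. In cortex most of these genes are known for high expression while neurons migrate and extend axons, and Gap43 and Marcks for a part in synaptic plasticity later.

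On NCBIM37, the build to which the reads were aligned, Gap43 lies at chr16:42248555-42340764 on the minus strand, Marcks at chr10:36853049-36858732 on the minus strand and Marcksl1 at chr4:129190825-129193229 on the plus strand. The end of Marcksl1 meets Hdac1 on the opposite strand. Tubb3, at chr8:125935324-125945915 on the plus strand, overlaps the gene model Gm20388 on the same strand, so reads there could be shared. The transcript end of Stmn1 (chr4:134024235-134029758, plus strand) has copies of 98.6% to 100% identity in Gm11223 on chromosome 4, a gene that the files do not list, and that of Tubb2b (chr13:34218877-34222223, minus strand) has 1 copy of 98.3% identity on chromosome 12. The counts of Stmn1 and Tubb2b are to that extent uncertain.

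Promoters from RefSeq (GRCm38.p6) were available here for Basp1, Marcksl1, Dcx and Tubb3, 4 of the 10. Those of Marcksl1 and Tubb3 are shown, because Marcksl1 had the largest age difference of the 10 and Tubb3, a neuronal gene, none past the threshold in neurons. Each is the run of 250 bases before the transcription start, 5′ to 3′ on the plus strand, chr4:129513331-129513580 for Marcksl1 and chr8:123411303-123411552 for Tubb3, with the GC box and the CCAAT box in capitals. The letters of the GC box are GGGCGG. The CCAAT box reads as ATTGG where it lies on the other strand, as in both windows.
Marcksl1: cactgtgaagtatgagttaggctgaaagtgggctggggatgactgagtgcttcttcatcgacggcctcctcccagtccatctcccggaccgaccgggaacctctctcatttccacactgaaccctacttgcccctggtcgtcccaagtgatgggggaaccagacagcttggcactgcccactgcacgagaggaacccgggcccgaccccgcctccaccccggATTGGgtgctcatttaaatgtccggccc
Tubb3: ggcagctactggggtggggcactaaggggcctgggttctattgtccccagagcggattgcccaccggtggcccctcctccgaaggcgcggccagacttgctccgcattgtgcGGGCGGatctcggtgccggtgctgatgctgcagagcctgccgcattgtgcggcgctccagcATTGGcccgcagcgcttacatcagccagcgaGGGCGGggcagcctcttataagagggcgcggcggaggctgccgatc
The Marcksl1 window held 1 CCAAT box, 28 bases from the start, and no GC box, with 60.4% G or C and 12 CG pairs. The Tubb3 window held 2 GC boxes, 138 and 46 bases from the start, and 1 CCAAT box at 77 bases, with 68.0% G or C and 21 CG pairs. Searched on both strands of the same 250 bases before the start, the GC box was present in 32.7% and the CCAAT box in 33.8% of 32851 RefSeq promoters, so these letters are common, and the median G or C content was 52.4%.

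Levels are given as CPM (the UMIs of a gene scaled to a common total) of a class's summed UMIs in a library, after removal of mitochondrial and ribosomal protein genes, and only for libraries with at least 10 cells of the class. CPM is not corrected for transcript length, and droplet libraries count transcript ends, so levels are compared between cells and not between genes. Classes are those of the authors' clusters, which were formed on the expression of variable genes, and whether the 10 were among these is not known. P21 cells were placed by the authors in the clusters of P60 cells by their expression. Differences in level between classes or clusters are therefore a description without a test.

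At P60 in saline libraries the genes fell into 3 kinds by the class in which their level was highest. Gap43, Basp1, Stmn1, Stmn2 and Tubb3 were highest in excitatory neurons. The mean level of Gap43 was 1132 ± 134.5 CPM in the excitatory class (SD, n = 6) and 790 ± 68.1 CPM in the inhibitory class (n = 6), while the next class had a mean of 162 CPM. The libraries of the 2 neuron classes did not overlap, but the lowest excitatory one (887.3 CPM) lay just above the highest inhibitory one (884.8 CPM). Stmn1 was at 7132 ± 698 CPM in excitatory neurons, followed by mature oligodendrocytes at 4281 CPM and inhibitory neurons at 2935 ± 224 CPM, and neighbours in this order did not overlap. Stmn2, which codes for the neuronal protein SCG10, had a mean of 1586 ± 215 CPM in excitatory neurons, which overlapped the 1288 ± 146 CPM of inhibitory neurons.

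Marcks, Marcksl1 and Tubb2b were highest outside neurons. Marcks had means of 1372 ± 465 CPM in newly formed oligodendrocytes (n = 5), 1023 CPM in oligodendrocyte precursors and 639 CPM in microglia, against 146 ± 15.0 CPM in neurons of the excitatory and 108 ± 23.6 CPM in those of the inhibitory class. Marcksl1 was at 165 CPM in newly formed oligodendrocytes, 129 CPM in precursors, 74.2 ± 11.2 CPM in inhibitory and 32.6 ± 6.34 CPM in excitatory neurons, and at 4.00 CPM in endothelial cells. Tubb2b was at 1593 CPM in astrocytes and 1391 CPM in newly formed oligodendrocytes, which overlapped, at 815 CPM in precursors, and at 155 ± 19.8 CPM in inhibitory and only 27.6 ± 9.67 CPM in excitatory neurons. Dcx and Dpysl3 were highest in oligodendrocyte precursors, at 65.0 and 272 CPM, and had like levels in excitatory and inhibitory neurons (39.7 and 39.3 CPM of Dcx, 31.8 and 32.5 CPM of Dpysl3). Precursors at P21 had 41 cells, with at least 10 in 1 library, and were not compared between ages.

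The classes themselves carried their defining markers: the summed level of 5 excitatory markers was 1300 to 1580 CPM at P21 and 1200 to 1510 CPM in P60 saline libraries of excitatory neurons, and of 6 inhibitory markers 16300 to 17400 CPM and 5910 to 14500 CPM in inhibitory neurons. Neuronal RNA was present in other classes in amounts that differed between libraries. The sum of 5 general neuron markers in astrocytes was 402 to 721 CPM at P21 and 349 to 2720 CPM in P60 saline libraries, and in precursors at P60 305 to 2900 CPM, beside 7910 to 9480 CPM in excitatory neurons. The part of this RNA in the levels of the 10 genes outside neurons was not tested.

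**Figure D1:**
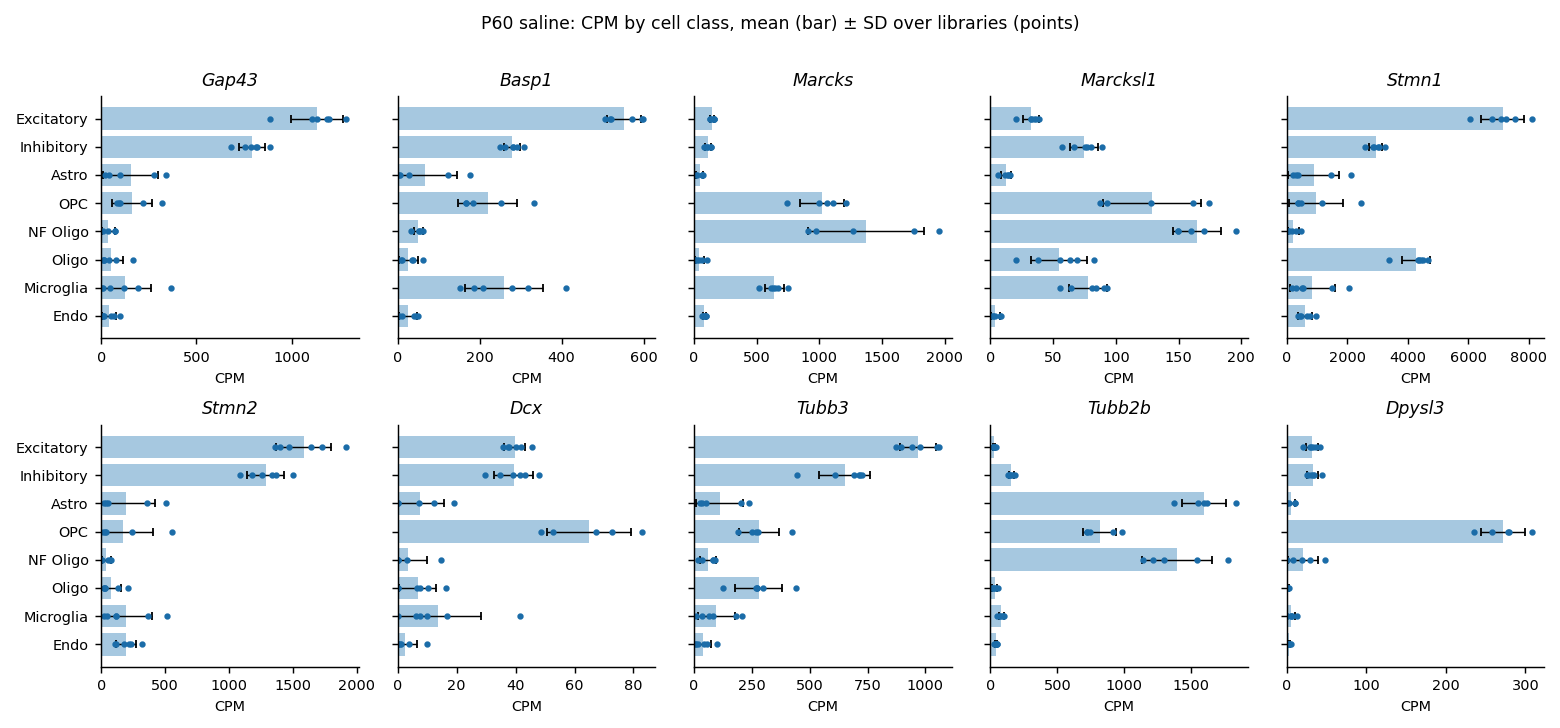
Level of each of the 10 genes in 8 cell classes of P60 saline libraries, in CPM on a linear axis that starts at 0. Bars are means over libraries, error bars SD and points libraries (n = 5 or 6); Gap43 stands at 1132 CPM in excitatory neurons, while Marcks (1372 CPM) and Tubb2b (1391 CPM) are high in newly formed oligodendrocytes.

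For the age comparison, UMIs were summed per library and class and tested between 3 P21 and 6 P60 saline libraries (5 for astrocytes and newly formed oligodendrocytes) with the edgeR quasi-likelihood test over all genes. A gene is said to have risen or fallen when its Benjamini-Hochberg adjusted p was under 0.05 and its change above 1.5-fold, and log2 fold changes are P60 minus P21, with their standard error (SE). In excitatory neurons 4 of the 10 genes fell (Marcksl1, Tubb2b, Marcks and Gap43) and none rose, where 11.1% of the 13244 genes tested fell and 8.18% rose. In inhibitory neurons 7 fell (the same 4, and Basp1, Stmn2 and Dpysl3) and none rose, where 8.27% of 8897 genes fell and 5.73% rose. The inhibitory class had 290 to 371 cells in a P21 library and 19 to 204 in a P60 saline library. Of its clusters 9 had at least 10 cells in 2 or more P21 libraries and 3 had in P60 saline libraries. This count also depends on the number of cells, so it does not give the mix of clusters at each age. The part of a change in that mix in the 7 decreases was not tested. Within the 3 inhibitory clusters with both ages, of the 10 genes only Marcksl1 passed, in Inhib_7 and Inhib_9. The part of the mix of excitatory clusters in the 4 decreases of the excitatory class was not tested either. With P21 libraries 2 and 3 counted as 1, since P21 libraries may share mice, 3 genes fell in excitatory and 5 in inhibitory neurons. Gap43 was then under the fold limit in both classes (-0.56 and -0.54) and Basp1 in inhibitory neurons (-0.56). The median log2 fold change of the 10 genes was -0.48 in excitatory and -0.67 in inhibitory neurons, against -0.0048 and 0.0025 over all genes tested.

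Gap43, which codes for the growth-associated protein of the membrane, was at 1297, 2187 and 2213 CPM in the excitatory neurons of the 3 P21 libraries, and in the 6 P60 saline libraries the lowest was 887.3, the median 1158 and the highest 1286 CPM. All P21 libraries were above all P60 libraries, but the lowest P21 library lay just above the highest at P60. Gap43 fell, with a log2 fold change of -0.68 ± 0.16 (SE) and an edgeR adjusted p of 0.00459. In inhibitory neurons Gap43 was at 891.5, 1419 and 1431 CPM at P21 and at 683.0 to 884.8 CPM, with a median of 800.4 CPM, at P60. The groups again did not overlap, and the log2 fold change was -0.65 ± 0.14 (edgeR adjusted p = 0.0031). The size of the Gap43 difference rested on the P21 libraries 2 and 3, which had the higher values: it was -0.57 in excitatory and -0.55 in inhibitory neurons without library 2, and -0.55 and -0.53 without library 3, under the 1.5-fold limit in each case.

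Basp1, whose product is the GAP-43-like membrane protein CAP-23, was at 628.6, 763.3 and 816.3 CPM in P21 excitatory neurons and at 506.5 to 597.8 CPM, median 546.8 CPM, at P60. The groups did not overlap, and the log2 fold change of -0.35 ± 0.09 (edgeR adjusted p = 0.00852) was under 1.5-fold. In inhibitory neurons Basp1 was at 374.0, 411.1 and 486.5 CPM at P21 and at 250.8 to 307.2 CPM, median 282.1 CPM, at P60, and there it fell by 0.60 ± 0.12 on the log2 scale (edgeR adjusted p = 0.00181). This call lay at the fold limit, since the log2 fold change was -0.49 without P21 library 3, -0.57 without P60 saline library 3 and -0.58 without P60 saline library 7.

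Marcks, a protein kinase C substrate that binds actin and the membrane, was at 232.9, 264.0 and 289.9 CPM in P21 excitatory neurons and at 125.4 to 160.5 CPM, median 150.9 CPM, at P60. In inhibitory neurons it was at 209.7, 248.6 and 274.5 CPM at P21 and at 81.66 to 134.9 CPM, median 107.0 CPM, at P60. The lowest P21 library was above the highest P60 library in both classes. Marcks fell in excitatory (-0.79 ± 0.09, edgeR adjusted p = 5.5e-05) and inhibitory neurons (-1.16 ± 0.15, edgeR adjusted p = 8.99e-05).

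Marcksl1, the smaller relative of Marcks, had the largest difference of the 10 genes in both neuron classes. Its level in excitatory neurons was 240.5, 226.6 and 225.0 CPM in the 3 P21 libraries, and 20.56 to 38.64 CPM, median 33.57 CPM, in the 6 P60 saline libraries. In inhibitory neurons it was 189.0, 192.2 and 182.3 CPM at P21 and 56.70 to 89.09 CPM, median 76.26 CPM, at P60. The groups were far apart in both classes, and the order of the classes turned, from excitatory above inhibitory at P21 to inhibitory above excitatory at P60 in all libraries. The log2 fold change was -2.75 ± 0.13 in excitatory (edgeR adjusted p = 2.93e-07) and -1.41 ± 0.14 in inhibitory neurons (edgeR adjusted p = 4.73e-06).

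The difference of Marcksl1 was also one of cells with any UMI of the gene. With each cell thinned to 2000 UMIs, 31.0% of P21 and 5.22% of P60 saline excitatory neurons held a Marcksl1 UMI, with libraries at 30.3% to 32.0% and 3.65% to 6.15%, and the shares of inhibitory neurons were 27.1% and 13.1%. Without thinning the shares of excitatory neurons were 67.1% and 20.7%, at median depths of 9233 and 13676 UMIs per cell. Endothelial cells had thinned shares of 4.76% and 0.7% at median depths of 3912.5 and 4529.5 UMIs, below the neurons of the same age. Marcksl1 was also measured outside neurons and fell there, so the endothelial shares are given beside those of neurons and not as a background.

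Stmn1 and Stmn2, both stathmins, differed in their course. Stmn1 was at 5364, 6642 and 6540 CPM in P21 excitatory neurons and at 6058 to 8111 CPM, median 7150 CPM, at P60, and at 2402, 3165 and 3027 CPM against 2576 to 3236 CPM in inhibitory neurons. The groups overlapped in both classes, with log2 fold changes of 0.27 ± 0.11 (edgeR adjusted p = 0.067) and 0.03 ± 0.12 (adjusted p = 0.888).

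Stmn2 was at 1975, 2528 and 2514 CPM in P21 excitatory neurons and at 1360 to 1916 CPM, median 1556 CPM, at P60, and at 1761, 2265 and 2177 CPM against 1084 to 1501 CPM, median 1296 CPM, in inhibitory neurons. Its groups did not overlap in either class. The log2 fold change of -0.50 ± 0.11 in excitatory neurons (edgeR adjusted p = 0.00355) was under the fold limit, and reached -0.61 without P21 library 1. In inhibitory neurons Stmn2 fell by 0.68 ± 0.12 on the log2 scale (edgeR adjusted p = 0.000804).

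Dcx, which codes for the microtubule-bound protein doublecortin, was at 36.58 to 42.14 CPM in P21 excitatory neurons and at 35.85 to 45.42 CPM at P60, with complete overlap. In inhibitory neurons it was at 34.69 to 51.87 and 29.70 to 48.10 CPM. Its log2 fold changes were 0.06 ± 0.09 and -0.08 ± 0.18 (edgeR adjusted p = 0.655 and 0.79), so no difference was detectable. The share of excitatory neurons with a Dcx UMI was 28.1% at P21 and 38.2% at P60 as sequenced, but 7.79% and 7.47% at 2000 UMIs per cell, and 0.351% and 0.431% in endothelial cells, which should lack Dcx. The shares of excitatory neurons were above that background at both ages.

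Tubb3, the neuronal beta tubulin, was at 883.7, 847.8 and 825.6 CPM in P21 excitatory neurons and at 872.1 to 1060 CPM, median 959.8 CPM, at P60. These overlapped, and the log2 fold change of 0.25 ± 0.08 (edgeR adjusted p = 0.0318) was under 1.5-fold. In inhibitory neurons the direction was the opposite, with 778.3, 780.4 and 745.4 CPM at P21, above the 445.4 to 727.6 CPM, median 701.7 CPM, at P60, and a log2 fold change of -0.23 ± 0.13 that did not pass (edgeR adjusted p = 0.251).

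Tubb2b, a beta tubulin of radial glia and migrating neurons, was at 50.41, 94.41 and 95.06 CPM in P21 excitatory neurons and at 17.01 to 41.48 CPM, median 24.70 CPM, at P60. In inhibitory neurons it was at 216.5, 326.8 and 299.7 CPM at P21 and at 133.6 to 184.8 CPM, median 151.4 CPM, at P60. The groups did not overlap, and Tubb2b fell in excitatory (-1.43 ± 0.28, edgeR adjusted p = 0.00419) and inhibitory neurons (-0.85 ± 0.14, edgeR adjusted p = 0.000756). As in Gap43, P21 library 1 was the closest to the P60 libraries. At 2000 UMIs per cell 11.3% of P21 and 5.16% of P60 excitatory neurons held a Tubb2b UMI, against 7.92% and 7.27% of endothelial cells. The P60 share over all excitatory neurons was below the endothelial share, so no expression is read from it, and none is excluded. Endothelial libraries had Tubb2b at 43.80 to 63.01 CPM at P21 and at 26.01 to 52.16 CPM at P60. Whether their share is a background without expression was not tested. The level of Tubb2b differed widely between adult excitatory clusters, as given with the clusters. The shares of inhibitory neurons, 37.2% and 22.6%, were above the endothelial shares.

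Dpysl3 was at 46.21 to 47.64 CPM in P21 excitatory neurons and at 19.92 to 41.88 CPM, median 31.33 CPM, at P60, without overlap, and its log2 fold change of -0.47 ± 0.15 (edgeR adjusted p = 0.0276) was under the fold limit. In inhibitory neurons it was at 57.01, 49.72 and 48.85 CPM at P21 and at 25.59 to 44.54 CPM, median 31.73 CPM, at P60, and it fell by 0.80 ± 0.18 on the log2 scale (edgeR adjusted p = 0.00428). With all 12 P60 libraries in place of the 6 saline ones the change was -0.57 (edgeR adjusted p = 0.0283), under the fold limit.

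**Figure D2:**
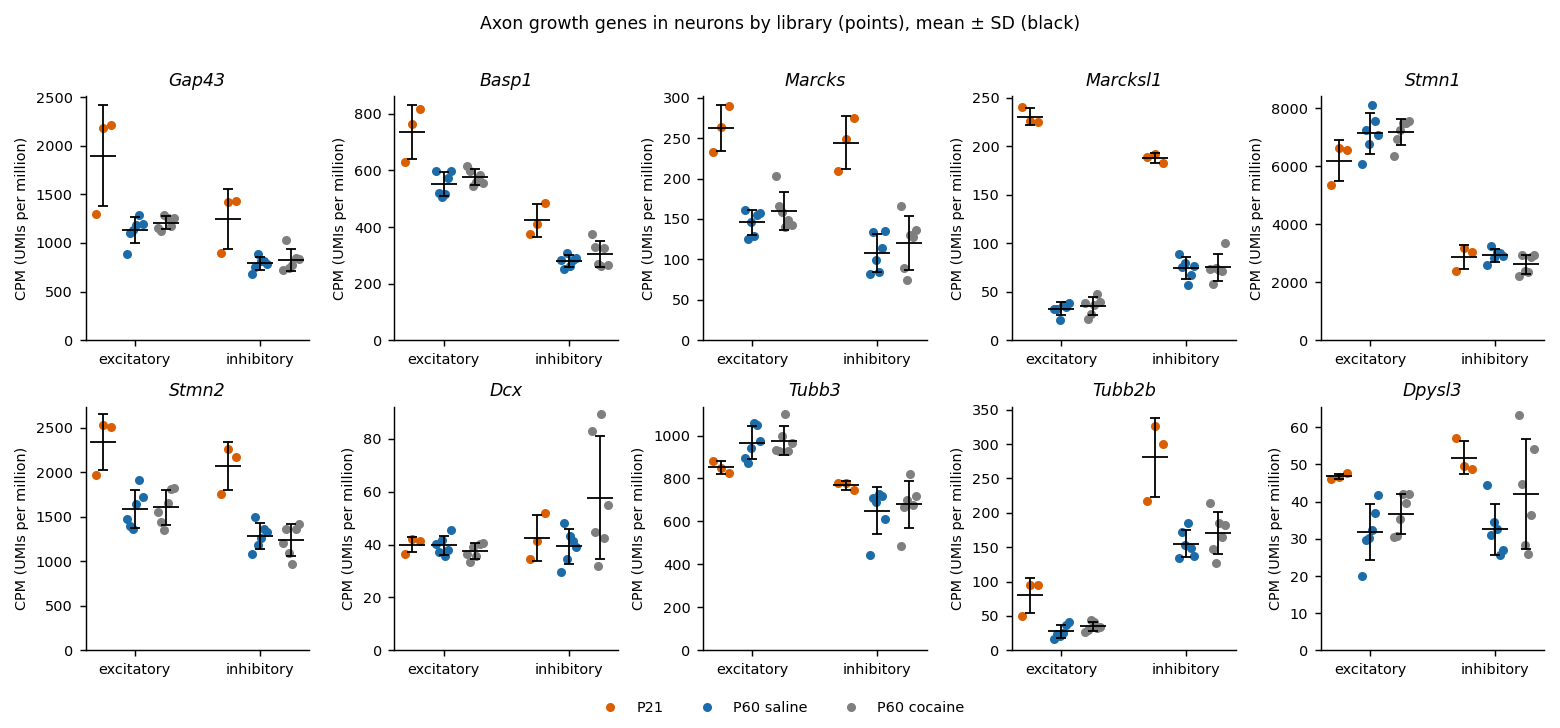
Level of each of the 10 genes per library in excitatory and inhibitory neurons, in CPM, for P21 (n = 3), P60 saline (n = 6) and P60 cocaine libraries (n = 6). Points are libraries and bars mean ± SD; for Marcksl1 the P21 excitatory libraries sit at 225.0 to 240.5 CPM and the P60 saline libraries at 20.56 to 38.64 CPM, while Dcx and Stmn1 overlap between ages.

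Other RNA in the same excitatory pseudobulks also moved with age. The summed markers of other classes were higher at P21 than in P60 saline libraries without overlap for each of these lists: 5 astrocyte genes (713 to 789 against 336 to 557 CPM), 5 oligodendrocyte genes (122 to 408 against 19.7 to 69.2 CPM), 5 genes of newly formed oligodendrocytes (15.3 to 22.3 against 2.30 to 3.41 CPM), 5 precursor genes (10.6 to 17.2 against 1.72 to 4.91 CPM), 5 endothelial genes (38.4 to 83.5 against 7.16 to 29.2 CPM) and 6 inhibitory genes (39.1 to 46.7 against 1.93 to 16.9 CPM). Of 8 neuroblast genes, 1 of which was at 0, the sum was 70.7 to 125 CPM against 12.9 to 22.1 CPM. The sum of 5 microglial genes was 22.3 to 104 CPM against 10.5 to 28.9 CPM, with overlap. In newly formed oligodendrocytes themselves, where Marcksl1 was at 231.0 to 579.4 CPM at P21, their own markers summed to 4040 to 4180 CPM, beside the 15.3 to 22.3 CPM in excitatory neurons. The astrocyte sum in P21 excitatory neurons compares with 21800 to 23100 CPM in P21 astrocytes, where Tubb2b was at 1248 to 1521 CPM. By gene, all 5 genes of newly formed oligodendrocytes fell in excitatory neurons (from -4.42 for Tcf7l2 to -2.03 for Enpp6), as did all 6 inhibitory genes (from -2.20 for Pvalb to -1.56 for Gad1), 4 of 5 precursor genes, 4 of 5 endothelial genes, 3 of 5 oligodendrocyte genes and 3 of 5 microglial genes. The astrocyte genes did not move alike, since Slc1a2 fell (-0.97, edgeR adjusted p = 2.95e-05), Aldoc rose (1.15, edgeR adjusted p = 0.02) and Aqp4, Gja1 and Slc1a3 did not pass. The part of such RNA in the age difference of Tubb2b and the other genes was not tested. In inhibitory neurons the sums of the same lists overlapped between ages for astrocyte (185 to 265 against 203 to 701 CPM), oligodendrocyte (49.2 to 449 against 13.7 to 254 CPM), endothelial (27.2 to 78.5 against 6.87 to 296 CPM) and neuroblast genes (213 to 264 against 178 to 445 CPM). They also overlapped for genes of newly formed oligodendrocytes (15.1 to 24.7 against 0 to 23.0 CPM) and precursor genes (12.4 to 24.0 against 0 to 35.7 CPM). The sum of microglial genes there was higher at P21 (58.7 to 87.1 against 0 to 47.0 CPM). By gene C1qb (-1.68, edgeR adjusted p = 8e-04), Mpzl1 (-1.48, edgeR adjusted p = 0.0224) and Sox4 (-1.68, edgeR adjusted p = 0.00076) fell, and the excitatory marker Camk2a rose (0.66, edgeR adjusted p = 0.0315). The sum of the 6 inhibitory markers was also higher at P21, as given above, but of its genes none fell and Gad1 rose (0.79, edgeR adjusted p = 0.00126). Sst, Pvalb and Slc32a1 had log2 fold changes of -1.87, -0.86 and -0.32, and Gad2 and Vip of 0.45 and 0.84, none of which was called. When only cells were kept whose deposited class and cluster name the same class, which removed 459 P21 cells (4.36%) and 19 P60 saline cells (0.16%), the log2 fold changes in excitatory neurons were -2.77 for Marcksl1, -1.41 for Tubb2b, -0.78 for Marcks and -0.72 for Gap43, and all 4 remained called.

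The age difference itself was compared between the classes in 1 fit of both, with the library as a block. It differed for 5 of the 10 genes, at an edgeR adjusted p under 0.05, where 11.2% of 12195 genes differed. Marcksl1 had the smaller decrease in inhibitory neurons (inhibitory minus excitatory log2 fold change 1.28 ± 0.14, edgeR adjusted p = 3.32e-08). Marcks (-0.39 ± 0.11, adjusted p = 0.0144) and Basp1 (-0.27 ± 0.09, adjusted p = 0.0269) had the larger decrease in inhibitory neurons. Tubb3 (-0.50 ± 0.08, adjusted p = 4.51e-05) had log2 fold changes of 0.25 in excitatory and -0.23 in inhibitory neurons. Those of Stmn1 (-0.27 ± 0.06, adjusted p = 0.00124) were 0.27 and 0.03. The inhibitory minus excitatory value of Gap43 was -0.03 (adjusted p = 0.871) and that of Tubb2b 0.44 ± 0.27 (adjusted p = 0.417). Without P21 library 3 or without P60 saline library 11 the count was 3, Marcksl1 (1.29 and 1.33), Tubb3 (-0.50 in both) and Stmn1 (-0.27 and -0.26), while Marcks and Basp1 no longer passed. In the 3 inhibitory clusters with both ages the estimates were -1.89 to -1.24 for Marcksl1 and -0.92 to -0.04 for Marcks. They were -0.86 to -0.11 for Basp1, -0.17 to 0.30 for Tubb3 and 0.02 to 0.30 for Stmn1. The part of the mix of excitatory or inhibitory clusters and of RNA of other classes in these differences was not tested.

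In the 5 classes fitted outside neurons, Dcx and Dpysl3 were under the filter on low counts, and 8 of the 10 genes were tested. Marcksl1 fell in each of the 5, and P21 and P60 saline libraries did not overlap in any of them. In mature oligodendrocytes it was at 321.5, 303.7 and 293.7 CPM at P21 and at 20.09 to 82.58 CPM at P60 (-2.62 ± 0.23, edgeR adjusted p = 1.72e-06), where 10.3% of genes fell and 7.55% rose. Precursor genes there summed to 424 to 492 CPM at P21 and 146 to 381 CPM at P60. Genes of newly formed oligodendrocytes summed to 219 to 249 and 98 to 195 CPM, and microglial genes to 88.6 to 293 and 15.1 to 35.7 CPM. None of these overlapped, while the astrocyte, endothelial, inhibitory and neuron sums did. The part of such RNA in the decrease was not tested. In endothelial cells Marcksl1 was at 36.05, 23.09 and 32.04 CPM at P21 and at 0 to 8.504 CPM at P60 (-2.85 ± 0.42, edgeR adjusted p = 0.000966), where 7.35% of genes fell and 5.31% rose.

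Fewer genes were called in the other 3 classes, and Marcksl1 was among them. In astrocytes (0.984% of genes fell, 0.121% rose) Marcksl1 was at 50.51, 145.3 and 96.03 CPM at P21 and at 5.816 to 15.5 CPM at P60 (-2.82 ± 0.41, edgeR adjusted p = 0.00309). Of the markers of other classes Sst also fell there (-2.73, edgeR adjusted p = 0.0387), while the microglial genes C1qb (-2.87) and Ctss (-2.51) did not pass. The inhibitory genes summed to 78.6 to 128 CPM at P21 and 0 to 41.2 CPM at P60, and the microglial, precursor and oligodendrocyte sums overlapped. The part of such RNA in the decrease was not tested. In microglia (0.701% fell, 0.025% rose) Marcksl1 was at 343.9, 142.5 and 236.5 CPM against 55.09 to 92.97 CPM (-1.68 ± 0.29, edgeR adjusted p = 0.0109). Precursor genes there summed to 119 to 434 CPM at P21 and 0 to 13.8 CPM at P60. Oligodendrocyte genes summed to 315 to 2490 and 62 to 290 CPM, and those of newly formed ones to 60.8 to 276 and 7.75 to 36.9 CPM. Astrocyte genes summed to 760 to 2210 and 258 to 668 CPM. None overlapped, while neuron, inhibitory and endothelial sums did. Microglial genes were lower at P21 (18200 to 27100 against 28100 to 46100 CPM). The part of such RNA was not tested. In newly formed oligodendrocytes (1.19% fell, 0.746% rose) Marcksl1 was at 579.4, 231.0 and 280.7 CPM against 149.3 to 195.6 CPM (-1.26 ± 0.29, edgeR adjusted p = 0.0399). These calls rested on few libraries: the count of fallen genes among the 10 went from 1 to 0 in microglia without P21 library 1, in astrocytes without P60 saline library 11 or 12, and in newly formed oligodendrocytes without P21 library 1 or P60 saline library 2, 5, 7 or 11. With all libraries Marcksl1 fell in all 7 classes fitted, as did Pfn1 and Tmem93, and these 3 were 0.109% of 2759 genes tested in every class, of which none (0%) rose in all 7. At P60 Marcksl1 was low in endothelial cells (0 to 8.504 CPM) and astrocytes (5.816 to 15.5 CPM). It could pass the filter on low counts there through its P21 libraries alone, so its fall in all 7 classes is a description.

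Among the other 9 genes outside neurons, Marcks fell in endothelial cells, from 186.6, 180.6 and 195.1 CPM to 60.54 to 96.59 CPM (-1.32 ± 0.12, edgeR adjusted p = 4.51e-06). Markers of other classes also fell in endothelial cells: 4 of 5 microglial genes (C1qb, Ctss, Cx3cr1 and P2ry12, by -1.42 to -2.41), Gja1 of the astrocyte genes, Gpr17 of the precursor genes and Mpzl1 of those of newly formed oligodendrocytes, while Bmp4 of the last list rose. The microglial genes summed to 93.7 to 281 CPM there at P21 and 30 to 101 CPM at P60, with overlap, and those of newly formed oligodendrocytes to 266 to 503 and 145 to 208 CPM, without. Marcks had a mean of 983 CPM in P21 microglia, and the part of such RNA in the endothelial decreases of Marcks and Marcksl1 was not tested. Tubb3 rose in mature oligodendrocytes, from 137.0, 82.16 and 100.2 CPM to 126.9 to 441.9 CPM with overlap (1.29 ± 0.29, edgeR adjusted p = 0.00951). The neuron markers in mature oligodendrocytes were at 162 to 392 CPM at P21 and 188 to 1080 CPM at P60, and their part in the rise of Tubb3 was not tested. It was no longer called without P21 library 2 or 3. Stmn1 in mature oligodendrocytes was at 2858 to 3072 CPM at P21 and 3364 to 4680 CPM at P60, without overlap, and its log2 fold change of 0.45 ± 0.13 (edgeR adjusted p = 0.0225) was under 1.5-fold.

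**Figure D3:**
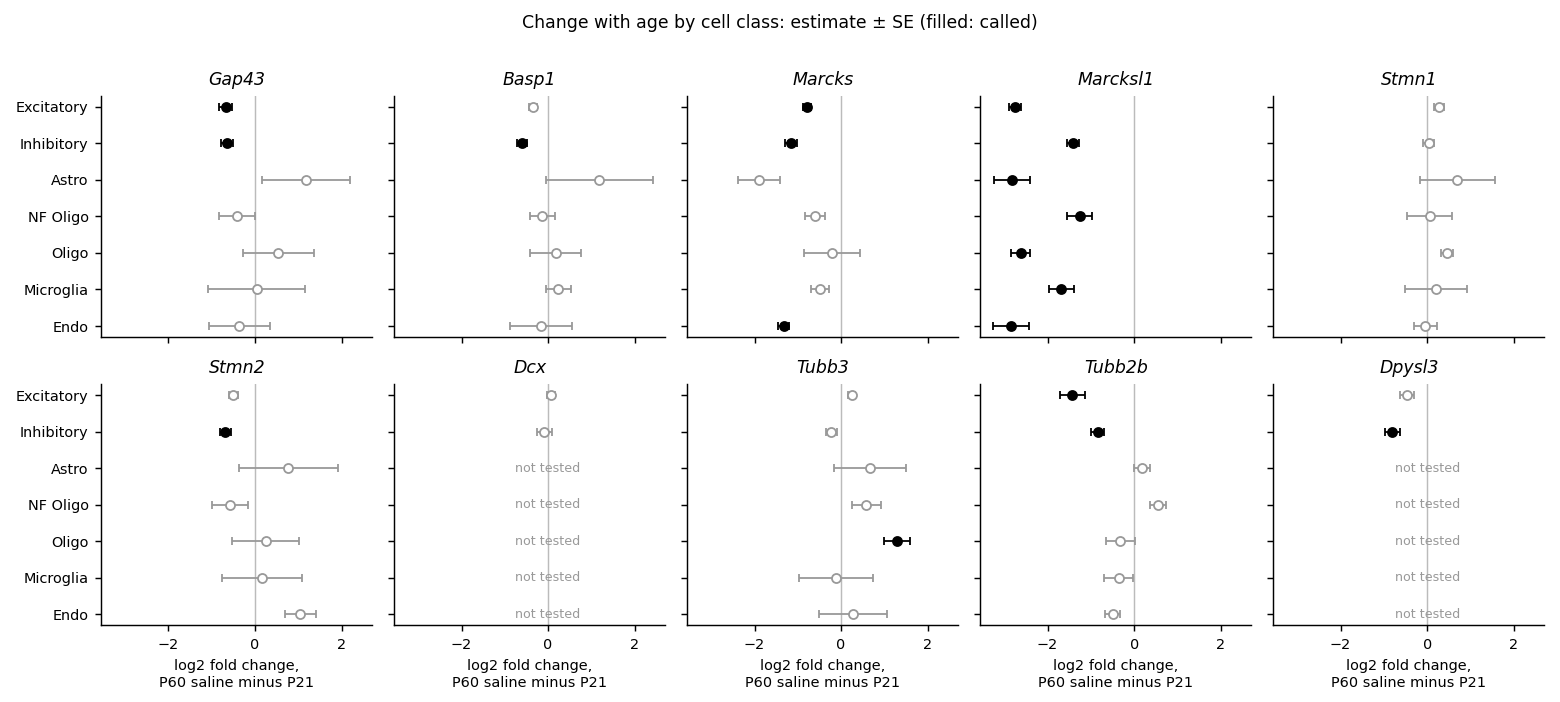
Log2 fold change (P60 saline minus P21) of the 10 genes in 7 cell classes, with SE; filled points passed an edgeR adjusted p under 0.05 and 1.5-fold, open points did not. Marcksl1 lies below 0 in all 7 classes, from -1.26 in newly formed oligodendrocytes to -2.85 in endothelial cells.

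Of 38 neuron clusters 29 had enough libraries of both ages for a test within the cluster, 26 excitatory and 3 inhibitory. Of 242 gene and cluster pairs tested in excitatory clusters 86 fell and 2 rose, and without Marcksl1 61 of 217 fell (28.1%), where 6.72% of all genes and cluster pairs fell and 4.55% rose. These counts are a description, since a pair that passed the filter on low counts through its P21 libraries alone had to differ. Of 27 pairs in inhibitory clusters 2 fell (7.41%) and none rose, against 1.34% and 0.294% of all pairs, both falls being those of Marcksl1: -1.24 in Inhib_7 and -1.89 in Inhib_9, with edgeR adjusted p of 0.00317 and 0.0143. The mix of neurons in Inhib_7 was not the same at both ages, since its mean level of Sst was 28.0 CPM at P21 and 639 CPM at P60 and that of Pvalb 0 and 362 CPM, and the part of this in the fall of Marcksl1 there was not tested. Inhibitory clusters hold few cells, and Marcksl1 in Inhib_2 (-1.32 ± 0.33, adjusted p = 0.0735) and Marcks in Inhib_2 (-0.92 ± 0.23, adjusted p = 0.082) did not pass. The estimates of Marcks in Inhib_9 and Inhib_7 were -0.46 and -0.04, nearer to 0 than the -1.16 of the class.

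Among excitatory clusters Marcksl1 fell in all 25 in which it passed the filter on low counts, with the smallest decrease, -1.44, in Exc_16. In some of these clusters, such as Exc_1 and Exc_12, it passed the filter through its P21 counts and had almost no UMIs at P60, so neither this count nor the size of those folds is used further. Marcks fell in 22 of 26 (median -0.81, from -1.30 in Exc_11 to -0.28 in Exc_23) and Gap43 in 12 of 26 (median -0.57, from -0.95 in Exc_22 to 0.02 in Exc_1). Tubb2b fell in 10 of 16 and rose in 1, Stmn2 fell in 8 of 26, Dpysl3 in 6 of 20 and Basp1 in 3 of 26. Stmn1 rose in 1 of 26 (Exc_24, 0.59 ± 0.12, edgeR adjusted p = 0.000749) and fell in none, and Dcx (25 tested) and Tubb3 (26 tested) passed in none. The estimates of Tubb3 ran from -0.20 to 0.56 over the clusters, and 4 of 26 were below 0.

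Whether the age difference varied over the 26 excitatory clusters was tested in 1 fit of 216 pseudobulks, with the library as a block. It varied for 9 of the 10 genes (edgeR adjusted p under 0.05), where it varied for 23.4% of 9849 genes. The F statistic was 7.41 for Stmn1, 6.96 for Stmn2 and 6.76 for Gap43, and Dcx did not pass (adjusted p = 0.495). That of Marcksl1 includes clusters with almost no UMIs at P60 and is not set beside these. When each cluster was fitted alone, Tubb2b and Dpysl3 passed the filter on low counts in 16 and 20 of the 26. Their F is not set beside these either, and the count of 9 includes Marcksl1, Tubb2b and Dpysl3. Exc_18, Exc_19 and Exc_20, which were high in Foxp2 and Syt6, genes of corticothalamic neurons, had 7 of the 10 genes called each, the most of all clusters. All of these were decreases, where 4.01%, 8.84% and 4.47% of all genes tested fell in these clusters. The 7 include Marcksl1, Tubb2b and Dpysl3. All 10 genes were tested in these clusters, while some other excitatory clusters, such as Exc_1, had 8 tested. The summed level of the 5 astrocyte markers, which did not all move alike in excitatory neurons, was also lower at P60 in all 3, without overlap: 1510 to 1720 CPM at P21 and 900 to 1080 CPM at P60 in Exc_18, 1280 to 1290 and 652 to 826 CPM in Exc_19, and 1330 to 1540 and 775 to 854 CPM in Exc_20. The sum of oligodendrocyte markers was 73.1 to 1170 CPM at P21 and 22.9 to 72.3 CPM at P60 in Exc_18, and overlapped in Exc_19 (42.8 to 185 and 11.2 to 65.9 CPM) and Exc_20 (50.1 to 599 and 7.68 to 87.5 CPM). Over the excitatory clusters the mean astrocyte sum at P21 ran from 219 CPM in Exc_12 to 1590 CPM in Exc_18. The part of either sum in these calls was not tested. In Exc_18 Dpysl3 was at 57.25, 54.38 and 59.83 CPM at P21 and at 16.37, 11.07 and 13.56 CPM in 3 P60 saline libraries, without overlap (-2.13 ± 0.32, edgeR adjusted p = 0.000303). Basp1 passed in these 3 clusters and in no other, with log2 fold changes of -0.65, -0.69 and -0.59 in that order, and Stmn1, Dcx and Tubb3 passed in none of them.

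**Figure D4:**
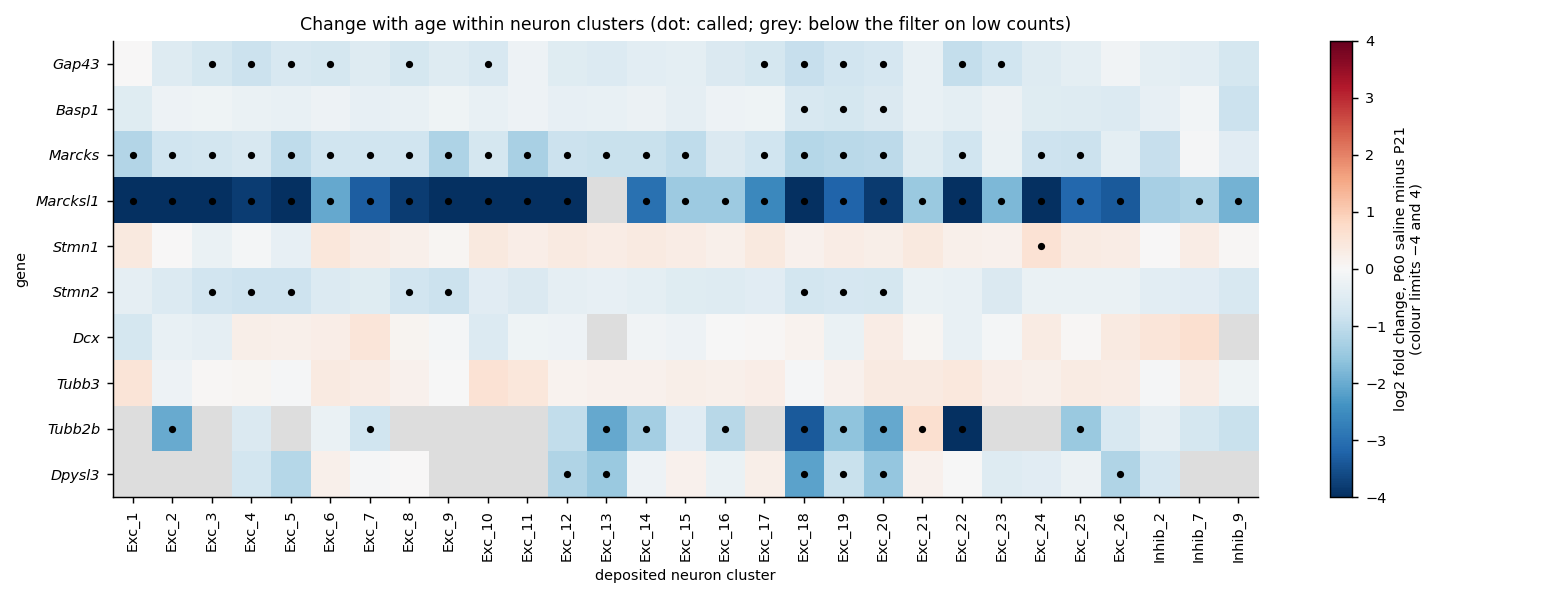
Log2 fold change (P60 saline minus P21) of the 10 genes in 29 neuron clusters, as colour from -4 to 4, with a dot where the gene was called and grey where it was under the filter on low counts. Exc_18, Exc_19 and Exc_20 have 7 called genes each, and the darkest cells of Marcksl1 include clusters with almost no UMIs at P60 (Exc_1 and Exc_12).

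The remaining Marcksl1 of adult excitatory neurons sat in a few clusters. At P60 the highest mean level was in Exc_15, with 104.9, 117.6, 145.7 and 169.8 CPM in its 4 saline libraries, followed by Exc_23 at 105.9 ± 19.8 CPM (n = 6) and Exc_16 at 100.3 ± 11.9 CPM (n = 6), all of which overlapped. The same clusters at P21 had more Marcksl1, with 406.6, 412.9 and 339.0 CPM in Exc_15 and 229.8 to 314.8 CPM in Exc_16. In Exc_21, marked by Tshz2 (2020 CPM) and Etv1 (681 CPM), Marcksl1 was at 246.1, 186.4 and 188.4 CPM at P21 and at 62.51 to 84.46 CPM at P60.

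At the other end, Marcksl1 was close to absent from several adult clusters. Exc_13 held 3 UMIs in 191 cells of P60 saline libraries, all in 1 of 6 libraries, a pooled level of 1.24 CPM with an exact Poisson interval of 0.255 to 3.62 that covers counting error only. Exc_12 held 2 UMIs in 360 cells (0.538 CPM, interval 0.0651 to 1.94), and Exc_1 held 5 UMIs in 245 cells (1.83 CPM, interval 0.594 to 4.27). At P21 Exc_1 held 128 UMIs in 92 cells, or 205 CPM (interval 171 to 243), and its libraries were at 181.0, 196.9 and 255.0 CPM. In Exc_13 the P21 libraries were at 30.16 to 60.69 CPM, so Marcksl1 was lower in this cluster at both ages.

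Gap43 was distributed otherwise. Its highest P60 level was in Exc_26, with 2837, 2767, 2415 and 2640 CPM in 4 saline libraries, above all libraries of the next cluster, Exc_7 (1998 ± 191 CPM), and its lowest in Exc_11 (549 ± 50.9 CPM, n = 6). In Exc_26 the P21 libraries were at 2422, 3125 and 3362 CPM, which overlapped, and the log2 fold change was -0.13 ± 0.17 (edgeR adjusted p = 0.797). In Exc_22, with the largest decrease, Gap43 was at 1101, 2191 and 1821 CPM at P21 and at 643.9 to 941.7 CPM at P60, without overlap (-0.95 ± 0.18, edgeR adjusted p = 0.00255).

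The mean of Stmn1 was highest in Exc_21, at 10170 ± 847 CPM (n = 6), which overlapped the next, Exc_7 (9183 ± 687 CPM), with Exc_21 libraries at 8938 to 11270 CPM against 7374, 8439 and 8123 CPM at P21. The libraries of the 2 ages did not overlap, and the log2 fold change of 0.39 ± 0.11 (edgeR adjusted p = 0.0144) was under 1.5-fold. Stmn1 was lowest in Exc_2, at 3476 ± 456 CPM, one of the clusters with Cux2 and Calb1, genes of upper layers. Exc_21 was also the cluster with the highest Marcks (346 ± 33.6 CPM, above all libraries of the next cluster) and the highest mean of Dcx (72.58 ± 17.98 CPM, which overlapped the next).

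Among adult excitatory clusters Tubb2b had its highest means in Exc_14 (115.2 ± 23.98 CPM) and Exc_7 (113.6 ± 35.39 CPM), whose libraries overlapped. In Exc_14 it was at 91.38 to 153.3 CPM and fell from 246.5 to 342.2 CPM at P21 (-1.36 ± 0.14, edgeR adjusted p = 1.15e-07). In Exc_22 Tubb2b was at 31.02, 44.03 and 25.74 CPM at P21 and at 0 to 2.343 CPM at P60, a total of 7 UMIs against 49. The only cluster in which Tubb2b rose was Exc_21 (0.63 ± 0.22, edgeR adjusted p = 0.0429), where the P60 libraries at 35.61 to 89.35 CPM overlapped the P21 libraries at 38.97 to 47.94 CPM. Astrocytes have a high level of Tubb2b, and their markers summed to 310 CPM in Exc_14 and 670 CPM in Exc_22 at P60, against 380 and 1050 CPM at P21. Their part in these differences was not tested.

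**Figure D5:**
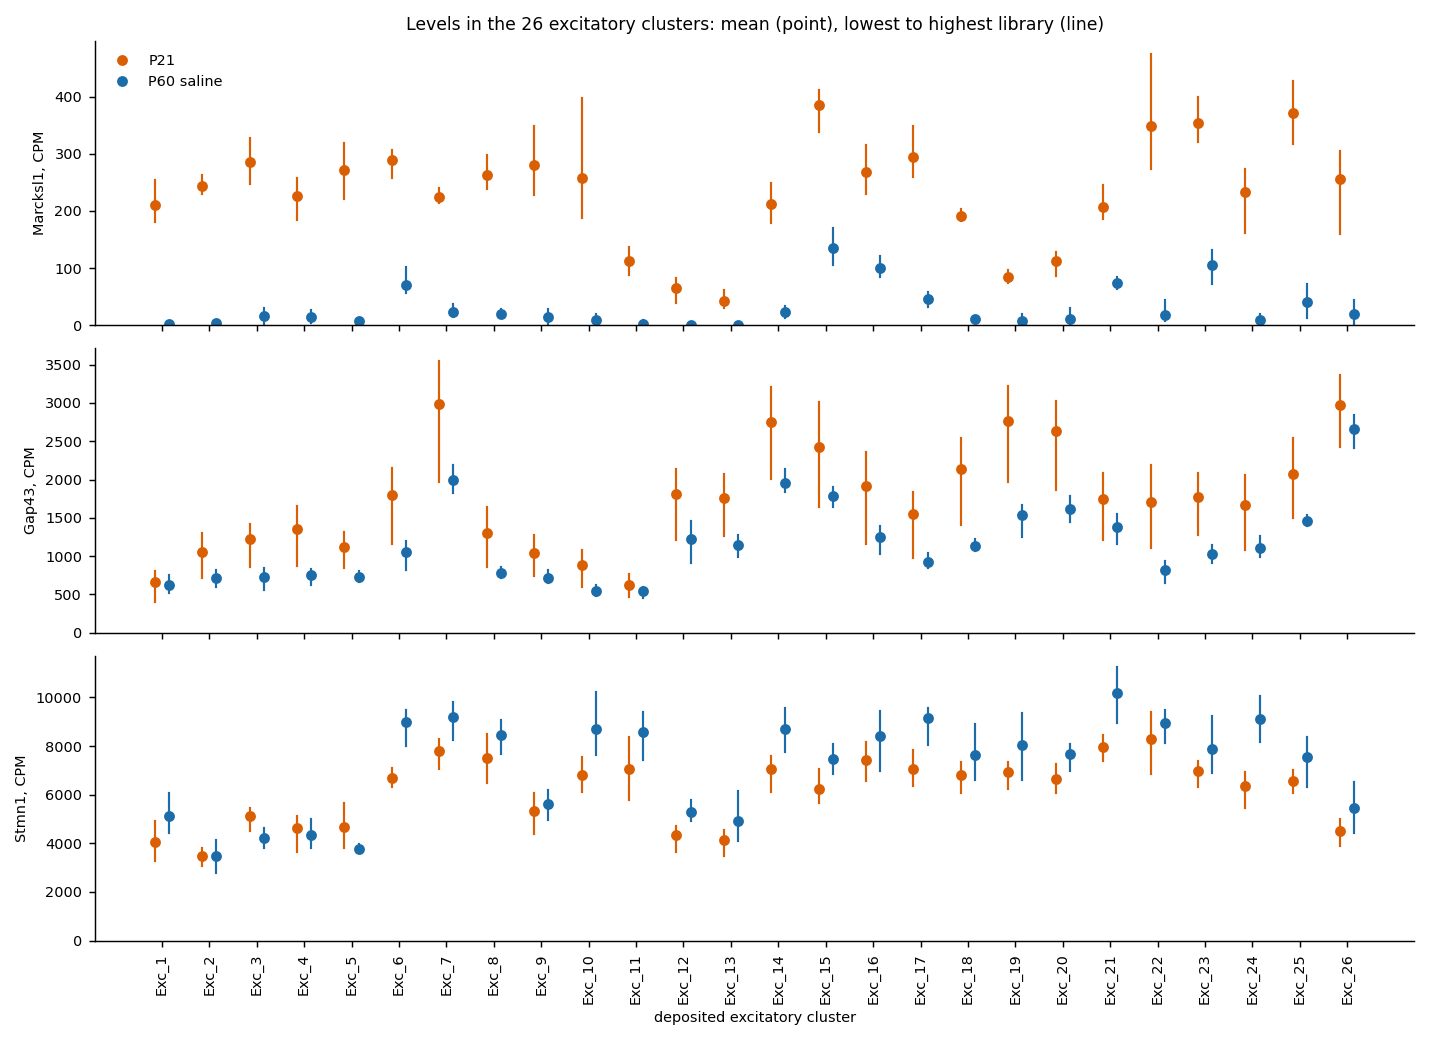
Mean level in CPM of Marcksl1, Gap43 and Stmn1 in 26 excitatory clusters, at P21 and in P60 saline libraries, with lines from the lowest to the highest library. Marcksl1 has almost no UMIs at P60 in some clusters (such as Exc_1 and Exc_12), and the mean at P60 is highest in Exc_26 for Gap43 (2665 CPM) and in Exc_21 for Stmn1 (10170 CPM).

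Genes near the 10 in function were described from 5 lists, by how many passed the same test, beside the shares of all genes, of which 11.1% fell and 8.18% rose in excitatory and 8.27% fell and 5.73% rose in inhibitory neurons. Of 20 tested relatives of the families (other stathmins, tubulins, doublecortin-like kinases and CRMPs, with Nrgn, Gprin1 and Gprin3) 5 fell and 1 rose in excitatory neurons, with a median log2 fold change of -0.12. The largest decreases were those of Dpysl5 (-1.89) and Dpysl2 (-0.97), which code for CRMP5 and CRMP2, and of Dclk1 (-0.67), while the alpha tubulin gene Tuba8 rose (1.57). In inhibitory neurons 2 of 18 fell, Dpysl2 (-0.97) and Dpysl5 (-0.62).

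Of 25 genes of growth cone actin 2 fell in excitatory neurons, a share under that of all genes, Pfn1 (-2.02), which codes for the actin monomer binder profilin, and Fscn1 (-1.02), which codes for the filopodial bundler fascin, and the median was -0.13. In inhibitory neurons 3 of 24 fell, Pfn1 (-1.94), Fscn1 (-1.07) and Tmsb4x (-0.87), the last a thymosin that holds actin monomers. Of 14 axon adhesion genes 3 fell in excitatory neurons (Cd24a, -3.23; Ncam1, -0.83; St8sia4, -0.82, the last a polysialyltransferase), and 5 of 13 fell in inhibitory neurons (among them Ntm, -0.73, Ncam1, -0.69, and Cntn1, -0.68). The median of this list was -0.22 in excitatory and -0.56 in inhibitory neurons.

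Of 12 tested regulators of axon growth 4 fell in excitatory neurons, the transcription factor genes Klf4 (-1.75), Atf3 (-1.64), Sox4 (-1.11) and Jun (-0.92). In inhibitory neurons 2 of 12 fell, Sox4 (-1.68) and Elavl2 (-0.78), an RNA-binding protein gene. Of 17 kinases and phosphatases that act on the proteins of the 10 genes 1 fell in each class, a share under that of all genes in both, Ppp2ca (-0.61 in excitatory and -0.69 in inhibitory neurons), the catalytic subunit of PP2A. No gene of the last 4 lists rose in either class.

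Across 35 classes and clusters of P60 saline libraries, among the genes whose log2(CPM + 1) was most like that of Stmn2 were Uchl1 (Pearson's r = 0.98) and Nsf (0.975), out of 10822 genes with at least 20 CPM in 1 type. Uchl1 also led the list of Gap43 (0.961), Khdrbs3 that of Basp1 (0.952), Vps41 that of Tubb3 (0.959) and Wdr54 that of Stmn1 (0.935). Marcks and Marcksl1 had no gene as close, with Arsb (0.792) and Snx8 (0.727) in front. Among the 10 genes Gap43 and Stmn2 had an r of 0.937, Stmn1 and Tubb3 of 0.915, Marcks and Marcksl1 of 0.328, and Stmn1 and Tubb2b of -0.659. The types share libraries and are not independent, and neuron clusters make up most of them.

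Between cocaine and saline libraries of P60 mice, none of the 10 genes passed with the edgeR test in 252 tests over 29 contrasts. The contrasts are those of each class at each time point and the mean of its time points, which is not independent of them. Of all gene tests 0.0866% passed as higher and 0.0124% as lower with cocaine (at most 0.706% in a contrast). Of the 252 tests 18 had an unadjusted p under 0.05. With DESeq2 Tubb2b passed in excitatory neurons at 48 h (0.85, adjusted p = 0.0179). Astrocytes, precursors and newly formed oligodendrocytes had 1 saline library with enough cells at maintenance, so that group was left out of their fits, and their means of time points are over 48 h and 15 d. The levels lay close together: in excitatory neurons Gap43 was at 1124 to 1292 CPM in 6 cocaine libraries (median 1214 CPM) beside 887.3 to 1286 CPM in saline libraries, and Marcksl1 was at 21.55 to 47.88 CPM beside 20.56 to 38.64 CPM. The smallest unadjusted p in excitatory neurons was that of Tubb2b at 48 h of withdrawal, with 43.88 and 40.72 CPM in 2 cocaine and 20.56 and 25.48 CPM in 2 saline libraries (0.84 ± 0.16, unadjusted p = 8.88e-05, edgeR adjusted p = 0.312). The saline libraries at 15 d had 37.34 and 41.48 CPM of Tubb2b, one of them within the range of the cocaine libraries at 48 h. In inhibitory neurons Dpysl3 at 15 d had 0.76 ± 0.26 (edgeR adjusted p = 0.268) and Dcx at 48 h 0.86 ± 0.32 (edgeR adjusted p = 0.898).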

How the data were processed

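Reads were aligned by the authors to mm9 (NCBIM37) and UMIs counted per gene and cell with Cell Ranger, and the deposited values are raw UMI counts per library. The deposited table of cells gives class, cluster and the mitochondrial share of UMIs as a fraction. The submitters' processing notes name Seurat 2.1.0, with which the authors removed cells with much mitochondrial RNA, probable doublets and cells with few genes, and clustered the rest; no doublet caller was run here. Libraries shared 0 to 27 barcodes over 105 pairs.

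Matrices were joined to the cell table in python 3.11.15 (pandas 2.3.3, numpy 2.4.6, scipy 1.17.1). Without 13 mitochondrial and 144 ribosomal protein genes UMIs were summed per library and type, at 10 or more cells, and scaled to CPM. Sums were tested in R 4.3.3 with edgeR 4.0.16 (filterByExpr, TMM, robust quasi-likelihood fit), over all genes and with Benjamini-Hochberg adjustment. Calls needed an adjusted p under 0.05 and 1.5-fold, and in tests of whether a change differed between types the adjusted p alone. Cocaine contrasts came from 1 fit per class of 12 libraries with 6 group means (10 libraries with 5 group means in astrocytes, precursors and newly formed oligodendrocytes). DESeq2 1.42.0, RLE scaling, other filters and left-out libraries were alternatives, and the scripts were tested on simulated data. Shares used cells thinned to 2000 UMIs, which left out 14 excitatory cells at P21 and 0 at P60. Poisson intervals are exact at 95%, and cover counting error only. Copies of transcript ends (300 bases, at least 100 aligned at 97% identity) were sought with minimap2 2.31-r1302.

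The 10 genes and the gene lists were chosen with earlier results of these data known. All 10 are named, any gene of the lists may be named with its value, and of each list the 3 genes with the largest rise and fall in excitatory neurons among those that passed are. Tmem93 was named after its values were seen. Likeness used genes at 20 CPM or more. A gene among those most like Stmn2 is not reported here. Replicates are libraries of pooled mice, so p-values measure the spread between these libraries.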

Additional observations from a re-analysis of the deposited data

Results flagged for a closer look

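In 80 sets of P60 saline libraries (a gene in a class) 3 held a library far from the others by Dixon's criterion, which chance alone gives in about 1 of 20 sets. Marcksl1 in excitatory neurons was at 20.56 CPM in library 5, where the next library had 32.62 CPM and the median was 33.57 CPM. All of these are far below the P21 libraries. Dcx in newly formed oligodendrocytes was at 14.57 CPM in library 12, where the next had 3.06 CPM and the median was 0. Stmn1 in mature oligodendrocytes was at 3364 CPM in library 12, where the next had 4346 CPM and the median was 4398 CPM.

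The age difference was not the same in inhibitory and excitatory neurons for Marcksl1 (1.28 on the log2 scale, inhibitory minus excitatory), Tubb3 (-0.50), Marcks (-0.39), Basp1 (-0.27) and Stmn1 (-0.27), by the edgeR test of the interaction of class and age. The part of the mix of excitatory or inhibitory clusters in this was not tested. The age difference was not the same in all excitatory clusters for 9 genes, with F statistics of 17.9 for Marcksl1, 7.41 for Stmn1, 6.96 for Stmn2, 6.76 for Gap43, 5.54 for Tubb2b, 5.46 for Dpysl3, 4.44 for Tubb3, 3.46 for Marcks and 3.13 for Basp1. The F of Marcksl1 includes folds in clusters with almost no UMIs at P60, such as Exc_1 and Exc_12, whose size is not used, so it is not compared with the others. Tubb2b and Dpysl3 passed the filter on low counts in 16 and 20 of 26 clusters fitted alone, so their F is not compared either. Among the excitatory clusters Stmn1 passed the fold limit in 1 of 26 and Tubb3 in none.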

How the results depend on the processing

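Of 220 log2 fold changes in neurons under other settings that keep all libraries, 199 kept direction and call, and of 180 with a library left out, 169 did. Without thinning, 39 of the shares of neurons with a UMI moved by at least their SD over libraries and 1 did not. With at least 30 cells, 44 of 860 levels that had both minima moved by more than 1 SD, and 210 levels had no value. Counts of genes that fell, against 4 in excitatory and 7 in inhibitory neurons, became 7 in excitatory neurons without a fold limit (1 rose) and 2 in each under Bonferroni correction. In astrocytes (1 fell) 2 fell with DESeq2, without the filter on low counts, with all 12 P60 libraries and by the deposited class column, by which 1 rose. In newly formed oligodendrocytes (1 fell) 2 fell without the filter, 0 with at least 30 cells, 0 under Bonferroni and 5 by the class column, by which 1 rose. In microglia (1 fell) 0 fell under Bonferroni and 4 by the class column. In mature oligodendrocytes (1 rose) 2 rose without a fold limit, 0 under Bonferroni and 0 by the class column. In endothelial cells (2 fell, 0 rose) 1 fell under Bonferroni, and 1 rose with DESeq2 and with all 12 P60 libraries. Cluster pairs that fell were 54 with at least 30 cells, against 88, and pairs that rose were 13 without a fold limit, against 2. For cocaine 2 of 252 tests passed without the filter and 1 with DESeq2. The class column and the cells on which column and cluster name the same class were chosen after seeing the data, and the latter changed no count. The cause of these changes was not tested, other than those that follow from the limit itself.

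With each library left out in turn the number that fell was 3 to 5 in excitatory and 5 to 7 in inhibitory neurons, 0 to 1 in astrocytes, microglia and newly formed oligodendrocytes, 1 in mature oligodendrocytes (0 to 1 rose) and 2 in endothelial cells (0 to 1 rose). Pairs that fell were 73 to 110 and those that rose 0 to 3. Differences between neuron classes numbered 3 to 5 and cocaine calls 0. The direction turned for Stmn1 in inhibitory neurons (-0.02 without the filter, -0.05 with all 12 P60 libraries, 0 by the class column, -0.08 to 0.11 with a library left out), for Dcx there (0.20 with all 12, -0.22 to 0.09 with a library left out) and for Dcx in excitatory neurons (-0.01 to 0.09 with a library left out), none of which had passed.

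No paired analysis was possible because the library numbers that P21 and P60 saline titles share name different animals. Leaving out each library for the test among excitatory clusters was not run. Low counts kept Dcx and Dpysl3 out of the age test in the 5 classes fitted outside neurons, and too few cells kept oligodendrocyte precursors and 9 neuron clusters out of it.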

Other observations

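Small inhibitory clusters that had too few P60 saline libraries for a test held high levels of some of the 10 genes at P21. Inhib_10, with Vip at 2870 CPM, was at 854.2 and 1018 CPM of Basp1 and at 603.9 and 546.2 CPM of Tubb2b in 2 P21 libraries with 12 and 16 cells. The 1 P60 saline library with at least 10 such cells (13 cells) had 531.1 CPM of Basp1 and 416.5 CPM of Tubb2b. Dcx was highest in Inhib_12, at 71.33, 175.0 and 164.4 CPM in 3 P21 libraries, which hold 14, 16 and 20 Dcx UMIs in 16, 11 and 17 cells. These levels are a description of few cells and were not tested.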
